A study of Mus musculus with 6 samples.

Results

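The mitochondrial ribosomal protein genes were taken from the deposited table as every row whose symbol starts with Mrpl or Mrps followed by a digit, leaving out symbols marked as pseudogenes. This gave 76 genes of 23337 in the table, and the choice used names and no measured value. They comprise 49 genes for proteins of the large subunit, 26 for proteins of the small subunit and Mrps36, whose product belongs to the 2-oxoglutarate dehydrogenase complex. RNA was measured in 3 libraries labelled ccl5, from mouse leukemia of neonatal origin that received the chemokine CCL5, and in 3 libraries labelled control, from such leukemia without it. The series title describes the leukemia as MLL-rearranged. By their labels, ccl5 replicate 1, titled neo30ccl5, came from a tertiary transplant. Primary transplants gave ccl5 replicates 2 and 3, both titled neo10ccl5, and also control replicate 3, while control replicates 1 and 2 carry no transplant label. What the digits in these titles stand for, strain, host age, dose and time of treatment are not given in the sources used here.

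Mitochondria carry their own ribosome, which translates the few mRNAs encoded by mitochondrial DNA, all for subunits of the oxidative phosphorylation complexes. Its rRNAs come from mitochondrial DNA, while its proteins are encoded in the nucleus, made in the cytosol and imported. Some of the proteins have bacterial relatives and form the core around the catalytic and decoding sites. Others arose in mitochondria and lie mostly on the outside, where they replace lost rRNA, build the central protuberance or hold the ribosome at the inner membrane. Acute leukemia cells have been described as dependent on mitochondrial translation.

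Total gene counts ranged from 13421100 to 18445095 per library. The 76 genes took 0.219%, 0.362% and 0.218% of the counts in ccl5 replicates 1 to 3, against 0.327%, 0.333% and 0.365% in control replicates 1 to 3. The widest of the 95% Wilson intervals of these shares ran from 0.359% to 0.365%, in ccl5 replicate 2, and covers counting error only. The lowest count of any of the 76 genes in any library was 61, for Mrps6 in ccl5 replicate 3, so all 76 passed the filter on low counts. The libraries did not fall together by label. Across genes, log2 levels of ccl5 replicates 1 and 3 correlated at r = 0.993, those of ccl5 replicate 2 and control replicate 3 at 0.995, and those of control replicates 1 and 2 at 0.995, while all other pairings lay between 0.826 and 0.886. ccl5 replicate 2 thus resembled a control library far more than the other ccl5 libraries, and ccl5 replicates 1 and 3 were alike although their transplant labels differ. The sources used here do not say whether libraries that pair share a leukemia, a clone or a batch, and whether labels were exchanged was not tested, so each fold change is one between libraries labelled ccl5 and libraries labelled control. No 2 libraries were within sampling noise of each other. All 10 markers of myeloid leukemia cells were detected, with a summed level of 2417 to 2789 CPM (each gene's share of the counts of its library, scaled by TMM, in the usual CPM unit) in ccl5 libraries and 2515 to 3011 CPM in control libraries. Single markers of the 10 differed in opposite directions, with log2 fold changes (ccl5 over control) from -2.2 to 1.03. In 3 of them (30%, against 7.49% of all tested genes) every ccl5 library lay below every control library. In 2 every ccl5 library lay above, as in 8.27% of all tested genes. In such bulk samples fewer cells of a type and less RNA per cell cannot be told apart. Whether the libraries of a group stem from different animals or cultures is not stated, so any p-value here reflects only the spread between these libraries.

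Most mitochondrial ribosomal protein genes measured slightly lower in the ccl5 libraries than in the control libraries, and none passed the test. The lower median level lay in ccl5 replicates 1 and 3, while that of ccl5 replicate 2 was within the control range. Of the 76 genes, 60 had a fold change below 1 (78.9%, against 51% of the 12174 genes tested) and 16 had one above 1. The median log2 fold change (ccl5 over control) was -0.19, against -0.014 over all tested genes, and ran from -0.89 for Mrps10 to 0.34 for Mrps18a. In 45 genes the log2 fold change was smaller than 0.25 in size, and in 10 it was larger than 0.5. Scaled by plain library totals, the median of all tested genes itself moved to -0.17, 72 of the 76 genes (94.7%) were lower against 65.1% of all tested genes, and their median was -0.34.

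With edgeR's quasi-likelihood test, 0 of the 76 genes and 0 of 12174 genes (0%) passed an adjusted p of 0.05, with 0.365 as the lowest value reached. Before adjustment, p was under 0.05 in 8 of the 76 (10.5%), all lower with ccl5, where 13.7% of all tested genes passed in either direction 4.67% passed as lower and 8.99% as higher. DESeq2's Wald test called 0 of the 76 and 192 of 12884 genes (1.49%). limma-voom with sample quality weights called 46 of the 76 lower and 6 higher, against 33.5% of all tested genes lower and 33% higher. The 3 ccl5 libraries all lay below the 3 control libraries in 18 of the 76 genes (23.7%, against 7.49% of all tested genes) and all above in 3 (3.95%, against 8.27%). Leaving out 1 library could change these counts. With ccl5 replicate 2 left out, edgeR called 20 of the 76, 19 of them lower, among 26.2% of all genes called. In that fit 44 of the 76 were lower without overlap and 9 higher, against 31.4% and 31.8% of all genes. Without control replicate 3 it called Mrps10 alone, among 1.88% of genes called, with 33 of the 76 lower without overlap and 7 higher, against 23.6% and 21.7% of all genes.

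**Figure D1:**
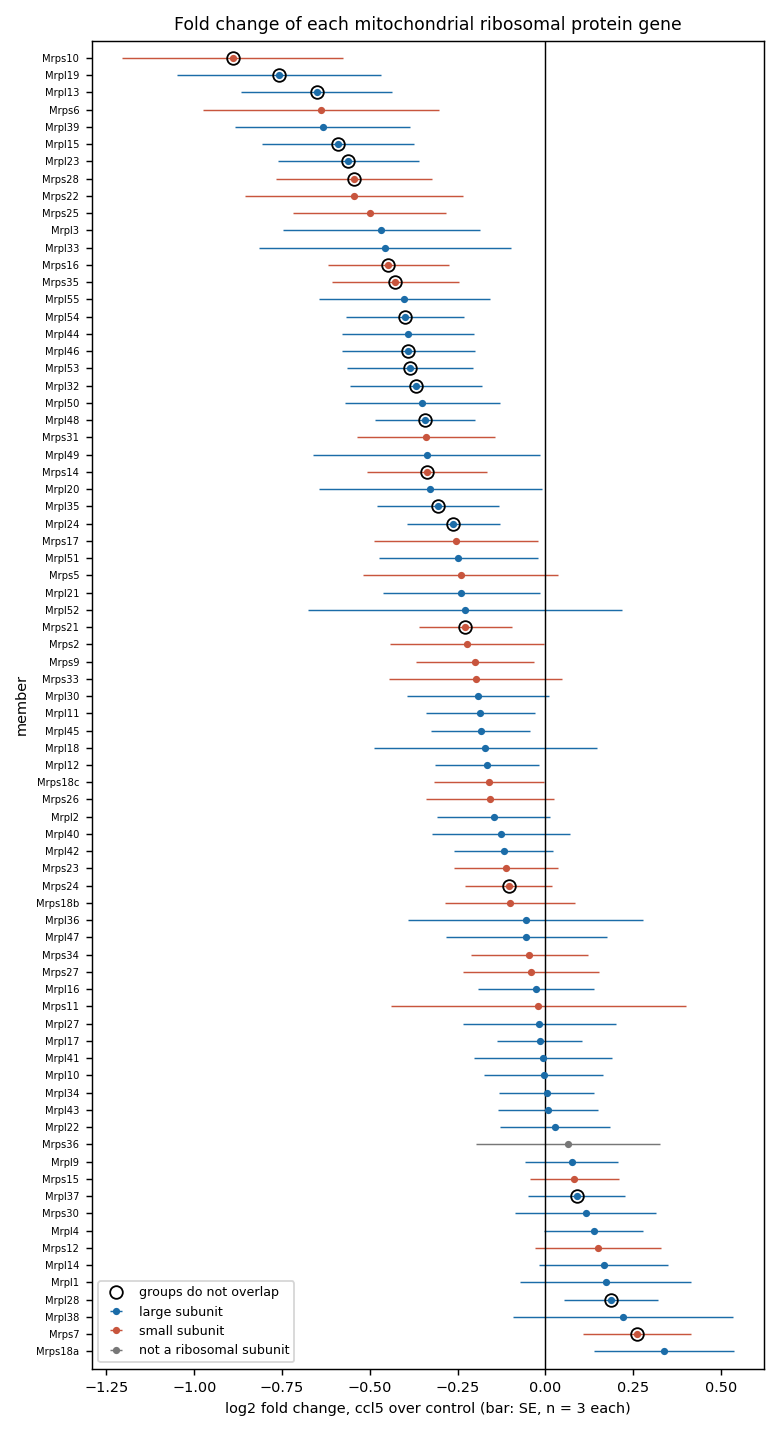
Log2 fold change of each of the 76 genes, ccl5 over control, with its SE as a bar, ordered from the lowest at the top, coloured by subunit. Open circles mark the 21 genes in which the 3 ccl5 and 3 control libraries did not overlap. Of the genes, 60 lie left of 0 with the TMM scaling drawn here. With plain library totals, which are not drawn, 72 had a fold change below 1.

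Of the 8 genes with the smallest p, Mrpl13, Mrpl23, Mrpl15 and Mrpl19 encode core proteins of the large subunit with bacterial relatives. Mrpl13 (mm10, chr15:55534095-55557312, minus strand) measured 32.0, 43.1 and 35.4 CPM in ccl5 replicates 1 to 3, against 63.3, 65.6 and 44.7 CPM in control replicates 1 to 3. Every ccl5 library lay below every control library, but the gap between ccl5 replicate 2 and control replicate 3 was small beside that between the other libraries. Its log2 fold change was -0.65 (SE 0.21). Mrpl23 (chr7:142533117-142540742, plus strand), whose bacterial relative borders the exit tunnel of the nascent chain, measured 28.5, 40.3 and 27.2 CPM with ccl5, against 46.2, 50.5 and 45.1 CPM in controls. The groups did not overlap, ccl5 replicate 2 was the highest ccl5 library, and the log2 fold change was -0.56 (SE 0.20).

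Mrpl15 (chr1:4773200-4785726, minus strand) measured 27.2, 42.5 and 31.9 CPM in the ccl5 libraries, against 54.3, 54.5 and 44.3 CPM in the control libraries. ccl5 replicate 2 came closest to control replicate 3 without reaching it, and the log2 fold change was -0.59 (SE 0.22). Mrpl19 (chr6:81957842-81965949, minus strand) measured 38.0, 74.8 and 41.5 CPM with ccl5, against 91.7, 90.3 and 79.3 CPM in controls. Its ccl5 replicates 1 and 3 were far below all others, ccl5 replicate 2 was just below control replicate 3, and the log2 fold change was -0.76 (SE 0.29). Exons of Mrpl19 overlap those of AW146020 on the other strand, and the counting set no strand option, so reads in the overlap cannot be told apart. Mrpl39 (chr16:84717580-84735302, minus strand), a large-subunit protein found only in mitochondria, measured 25.3, 37.4 and 22.3 CPM, against 47.7, 47.5 and 36.8 CPM in controls. It was the only one of the 8 whose groups overlapped, because ccl5 replicate 2 was above control replicate 3, and its log2 fold change was -0.63 (SE 0.25).

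In the small subunit, Mrps10 (chr17:47368887-47378679, plus strand), a core protein of the head of the subunit, had the lowest fold change of the 76 genes. It measured 43.4, 40.9 and 42.0 CPM with ccl5, against 92.7, 97.3 and 44.2 CPM in controls. The 3 ccl5 libraries and control replicate 3 were nearly level, and control replicates 1 and 2 were the high ones, so its log2 fold change of -0.89 (SE 0.31) lay in those control libraries. Mrps6, a core protein of the subunit platform, was laid out likewise, at 5.41, 5.86 and 5.55 CPM with ccl5, against 10.02, 10.9 and 5.28 CPM in controls. Its groups overlapped, and its exons overlap those of Slc5a3 on the same strand, which had 2031 counts in all against 692 for Mrps6.

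Mrps16 (chr14:20391231-20393555, minus strand), whose loss in humans impairs mitochondrial translation, measured 37.6, 53.1 and 42.5 CPM with ccl5, against 61.1, 61.7 and 59.0 CPM in controls. Its 3 control libraries were level (60.6 ± 1.42 CPM, SD, n = 3), its ccl5 libraries all lay below them (44.4 ± 7.94 CPM), and the log2 fold change was -0.45 (SE 0.17). Mrps28 (chr3:8802146-8923857, minus strand) measured 14.0, 18.6 and 12.2 CPM with ccl5, against 21.3, 23.9 and 20.1 CPM in controls. Its groups did not overlap, with ccl5 replicate 2 nearest to the controls, and the log2 fold change was -0.55 (SE 0.22). All 8 had an adjusted p of 0.365 with edgeR. Without ccl5 replicate 2, Mrpl13, Mrpl23, Mrpl15, Mrpl19, Mrps16, Mrpl39 and Mrps28 passed the edgeR test, at adjusted p between 0.00628 for Mrpl19 and 0.0478 for Mrpl13. In that fit 26.2% of all genes passed. Mrps10 passed without control replicate 3, at an adjusted p of 0.037, where 1.88% of all genes passed. The 8 genes were picked by p in these same libraries, so these passes are no separate support for them.

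**Figure D2:**
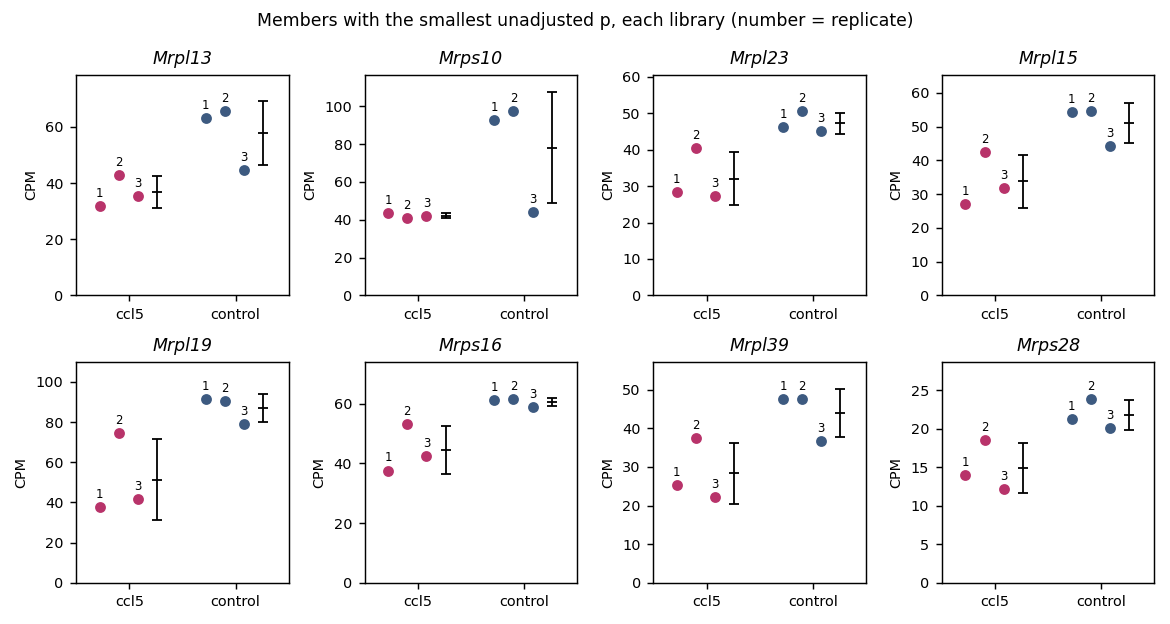
CPM of the 8 genes with the smallest unadjusted p in each library, with ccl5 left and control right, numbers giving the replicate, and the mean with its SD beside the points. ccl5 replicate 2 is the highest ccl5 library in all of them except Mrps10, and control replicate 3 is the lowest control library in all 8.

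The promoter windows of the 3 genes of this group with the smallest p and a window in the RefSeq table are printed to show which sites known from mitochondrial protein genes they carry. Each runs from 250 bases before to 50 bases after the RefSeq start, written along the gene (GRCm38.p6, the assembly mm10 is built on). Capitals mark matches on either strand to GGGCGG (SP1), CCGGAAG (ETS factors such as GABPA) and AAGATGG (YY1). The full NRF1 site and CATGCGC, which lies within it, were also searched and had no match in these windows. The RefSeq start differs from the start in the deposited table for all 3 genes, and for Mrps16, which has 2 windows in the table, 1 is printed.
Mrps10, chr17:47368947-47369246, plus strand: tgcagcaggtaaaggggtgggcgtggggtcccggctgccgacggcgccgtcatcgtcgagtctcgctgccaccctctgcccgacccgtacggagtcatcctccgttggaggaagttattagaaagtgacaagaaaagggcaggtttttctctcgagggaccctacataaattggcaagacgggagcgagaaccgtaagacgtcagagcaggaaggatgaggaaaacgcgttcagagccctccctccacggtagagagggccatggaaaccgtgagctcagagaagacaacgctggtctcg
Mrpl23, chr7:142532782-142533081, plus strand: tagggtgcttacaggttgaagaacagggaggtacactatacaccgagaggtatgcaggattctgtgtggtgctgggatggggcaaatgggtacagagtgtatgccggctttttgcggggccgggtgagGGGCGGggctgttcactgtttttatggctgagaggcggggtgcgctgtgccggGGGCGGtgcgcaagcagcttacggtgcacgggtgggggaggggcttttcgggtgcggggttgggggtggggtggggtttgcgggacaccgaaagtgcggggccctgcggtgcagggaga
Mrps16, chr14:20393441-20393740, minus strand: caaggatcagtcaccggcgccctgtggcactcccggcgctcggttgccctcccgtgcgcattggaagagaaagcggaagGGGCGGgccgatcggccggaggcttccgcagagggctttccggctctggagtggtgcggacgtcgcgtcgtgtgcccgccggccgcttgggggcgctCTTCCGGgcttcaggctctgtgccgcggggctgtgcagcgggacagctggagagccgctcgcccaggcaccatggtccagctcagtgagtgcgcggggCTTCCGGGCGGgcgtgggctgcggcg
Mrps16 held 2 matches to the ETS letters, the second of which runs into a GGGCGG, Mrpl23 held 2 matches to GGGCGG, and Mrps10 held none of the letters searched. These are matches of letters and not measured sites. The Mrps10 window lies wholly past the start of the gene in the deposited table (47368887), so it covers no bases before that start.

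Over the 67 of the 76 genes with a window in that table, the ETS letters CCGGAAG were present in 24 (35.8%), against 20.4% of the 8727 tested genes with a window. AAGATGG was present in 19.4% against 8.55%, the full NRF1 site in 3 genes (4.48%) against 2.43%, and CATGCGC in 11.9% against 8.06%. GGGCGG was present in 49.3%, against 68.4% of tested genes. The E-box CACGTG, bound by MYC, was present in 7.46% against 12%, and TATAAA in 7.46% against 8.54%. The ETS, YY1 and NRF1 letters were present in a larger share of these promoters than of those of tested genes, and the SP1 and MYC letters in a smaller share, with no test. The larger shares were not particular to the 76 genes. For ETS, YY1, full NRF1 and CATGCGC, cytosolic ribosomal protein genes had 40.4%, 17.5%, 3.51% and 14%. Nuclear-encoded oxidative phosphorylation genes had 26.2%, 16.4%, 8.2% and 21.3%. A gene counted once if any of its windows held the letters, and the genes with windows had 1.09 windows each, against 1.27 for tested genes.

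Some of the 76 genes followed the pairs of like libraries and not the labels, as did a larger share of all tested genes. In 17 of the 76 genes (22.4%, against 27.8% of all tested genes) ccl5 replicate 2 and control replicate 3 both lay above the other 4 libraries, and in 10 (13.2%, against 28.3%) both lay below them. Mrps11 (chr7:78783131-78792988, plus strand), a core protein of the small-subunit platform, measured 10.6, 21.1 and 9.65 CPM with ccl5, against 11.2, 10.9 and 19.97 CPM in controls. ccl5 replicate 2 and control replicate 3 were about level with each other and far above the rest, and the log2 fold change between the groups was -0.02 (SE 0.42). Mrpl52 (chr14:54426909-54429750, plus strand), a mitochondria-specific protein of the large subunit, had the opposite layout, at 42.3, 21.7 and 47.2 CPM with ccl5, against 54.6, 53.5 and 22.3 CPM in controls. The low libraries were ccl5 replicate 2 and control replicate 3, and its SE of 0.45 was the largest of the 76 genes.

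Mrpl18, Mrpl20 and Mrpl36, all of bacterial families, were also high in that pair of libraries. Mrpl36 measured 22.6, 45.1 and 22.7 CPM with ccl5, against 27.1, 28.5 and 38.3 CPM in controls. Mrpl18, which in bacteria binds the 5S rRNA, measured 52.3, 89.3 and 48.4 CPM, against 59.2, 61.1 and 93.6 CPM. Mrpl20 measured 20.2, 40.5 and 21.0 CPM, against 31.6, 31.6 and 39.5 CPM. In each of them ccl5 replicates 1 and 3 were the lowest libraries. Between ccl5 replicate 2 and control replicate 3 alone, 37 of the 76 genes were higher and 39 lower in the ccl5 library, with a median log2 ratio of -0.021 and 72 genes within 0.25. That ratio ran from -0.27 for Mrps35 to 0.31 for Mrps7. ccl5 replicates 1 and 3 both lay below control replicates 1 and 2 in 54 genes and above both in 11. The median log2 ratio was -0.31 for ccl5 replicate 1 over control replicate 1 and -0.29 for ccl5 replicate 3 over control replicate 2, with 59 genes lower in each.

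Marker genes moved with the same pairs of libraries. The 15 genes of the G2/M phase of the cell cycle summed to 293, 2686 and 198 CPM in ccl5 replicates 1 to 3, against 1074, 1136 and 2605 CPM in control replicates 1 to 3. The 10 neutrophil markers summed to 638, 13745 and 668 CPM with ccl5, against 1191, 1238 and 13357 CPM in controls. The 12 monocyte and macrophage markers summed to 23630, 4375 and 27538 CPM, against 13281, 13023 and 4770 CPM. ccl5 replicates 1 and 3, the libraries with the lowest median level of the mitochondrial ribosomal protein genes, were lowest in G2/M genes and highest in monocyte markers. All markers of these 3 lists were above 3 counts in at least 1 library. The 8 T and NK cell markers summed to 0.712 to 2.32 CPM with ccl5, against 1.28 to 3.08 CPM in controls, and 1 of them had no count in any library. The 8 B-cell markers summed to 11.6 to 15.6 against 11.7 to 16.9 CPM, nearly all of it from Cd79b, and Rag1 had no count. The 8 erythroid and megakaryocyte markers summed to 33.3, 9.22 and 30.3 CPM with ccl5, against 8.05, 8.10 and 13.4 CPM in controls, so they were highest in ccl5 replicates 1 and 3. Most of that came from Pf4, a platelet chemokine gene, at 24.4, 5.25 and 23.03 CPM with ccl5, against 0.317, 0.480 and 7.54 CPM in controls, while Hba-a1 and Hbb-b1 had no count. The 8 stroma and endothelium markers summed to 27.7 to 86.3 CPM with ccl5, against 86.7 to 99.3 CPM in controls. Nearly all of it came from Pecam1, which myeloid cells express too, at 34.1, 84.8 and 26.3 CPM with ccl5, against 82.0, 94.1 and 87.7 CPM in controls, and Col1a1, Cdh5 and Cxcl12 were below 1 CPM in every library. The part of cell type makeup and cell cycle in the lower values was not tested.

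**Figure D3:**
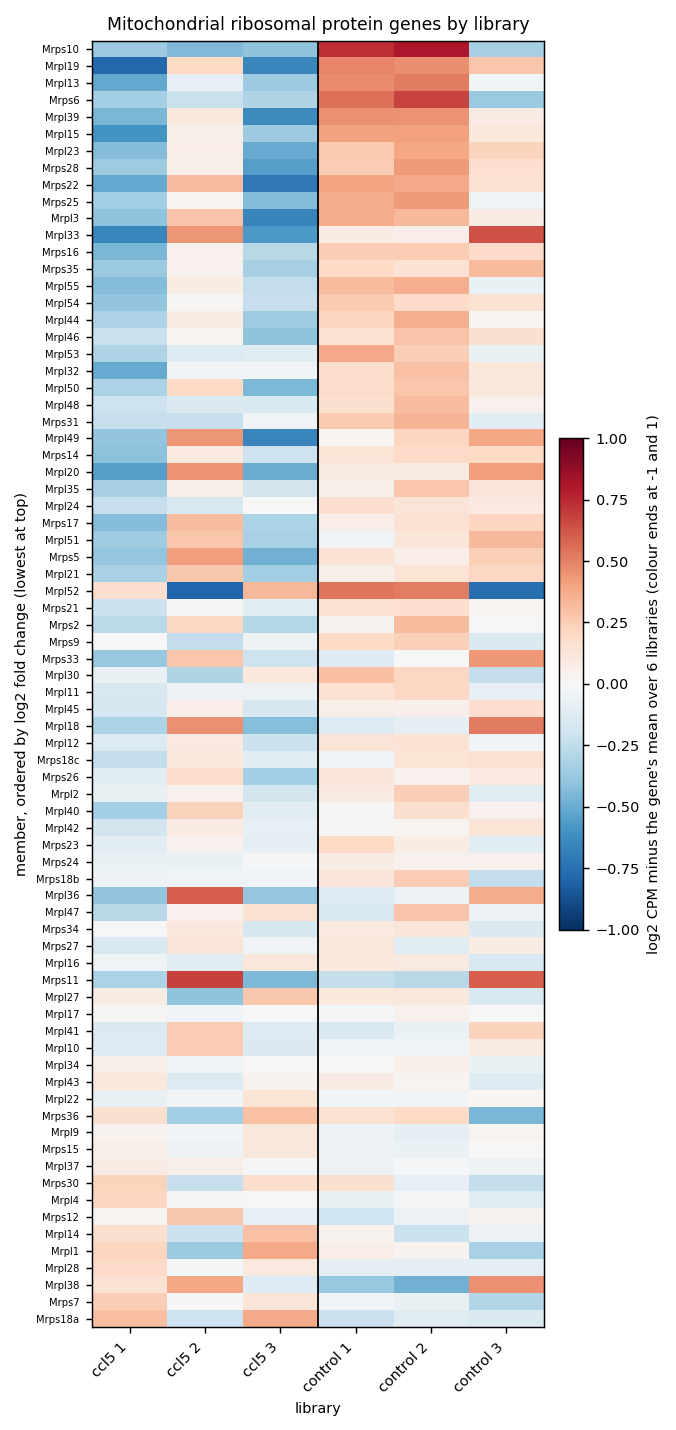
Log2 CPM of each of the 76 genes in each library minus the gene's mean over the 6 libraries, with the ccl5 libraries left of the line and the control libraries right of it, ordered by fold change. The columns of ccl5 replicates 1 and 3 are mostly blue, those of control replicates 1 and 2 mostly red, and those of ccl5 replicate 2 and control replicate 3 resemble each other, as in Mrps11 and Mrpl52.

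Of the genes with a fold change above 1, Mrps18a, Mrps7 and Mrpl38 had the largest. Mrps7 (chr11:115604151-115607624, plus strand), a core protein of the small-subunit head, measured 44.9, 38.2 and 41.5 CPM with ccl5, against 37.2, 35.9 and 30.9 CPM in controls. The groups did not overlap, although ccl5 replicate 2 and control replicate 1 were close, and the log2 fold change was 0.26 (SE 0.15). Mrpl38 (chr11:116131817-116138868, minus strand), a mitochondria-specific protein of the central protuberance, measured 21.8, 25.8 and 18.1 CPM with ccl5, against 15.2, 14.2 and 27.1 CPM in controls. Control replicate 3 was the highest library, so the groups overlapped (log2 fold change 0.22, SE 0.31), and with primary transplant libraries only the value turned to -0.31. Mrpl28 (49.4, 42.6 and 46.3 against 40.6, 40.6 and 40.3 CPM) and Mrpl37 (28.8, 28.3 and 26.8 against 26.0, 26.7 and 26.2 CPM) were the others above the controls without overlap, by small margins. With plain library totals no gene of the 76 was higher without overlap.

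Closest to no difference were Mrpl34, Mrpl10 and Mrpl41. Mrpl34 (chr8:71464926-71465753, plus strand), a short core protein of the large subunit, was level in all libraries, at 35.5, 33.2 and 34.0 CPM with ccl5, against 34.3, 35.6 and 32.6 CPM in controls. Its SD was 1.202 CPM with ccl5 and 1.47 CPM in controls (n = 3 each). Mrpl10 (chr11:97041586-97049213, plus strand), which holds the stalk that Mrpl12 forms, measured 38.0, 49.6 and 37.7 CPM with ccl5, against 40.6, 40.7 and 44.4 CPM in controls. Mrpl41 (chr2:24972470-24975098, minus strand), a mitochondria-specific protein, measured 28.5, 37.6 and 28.9 CPM, against 28.3, 30.1 and 37.0 CPM. In both, ccl5 replicate 2 and control replicate 3 were the high libraries, so equal group means hid a difference between libraries. The exons of Mrpl41 overlap those of Wdr85 on the other strand.

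Per kilobase of exon (RPKM), the 76 genes had a median level of 30.7, above the 10.1 of all tested genes and far below the 1622 of cytosolic ribosomal protein genes. Mean RPKM over the 6 libraries differed 62.9-fold between the highest, Mrpl33 at 279, and the lowest, Mrps25 at 4.44. Mrpl33 (chr5:31613951-31622644, plus strand), a short core protein of the large subunit, measured 168, 359 and 178 RPKM with ccl5, against 280, 277 and 411 RPKM in controls. Its groups overlapped because ccl5 replicate 2 was above control replicates 1 and 2. Without ccl5 replicate 2 its log2 fold change passed the edgeR test (-0.90, adjusted p = 0.0437), as did 26.2% of all genes. Mrps21 (chr3:95862652-95870619, minus strand), next in order, measured 132, 151 and 142 RPKM with ccl5, against 170, 172 and 157 RPKM in controls, without overlap.

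Mrpl30 (chr1:37890553-37898333, plus strand) followed, at 122, 104 and 138 RPKM with ccl5, against 158, 148 and 109 RPKM in controls, with control replicate 3 inside the ccl5 range. The ranges of Mrpl30 and Mrps21 over libraries overlapped, although Mrps21 was the higher of them within each of the 6 libraries, and Mrpl33 lay above both in every library. At the low end, Mrps25 (chr6:92169523-92184023, minus strand) measured 3.41, 4.42 and 3.20 RPKM with ccl5, against 5.60, 5.81 and 4.19 RPKM in controls. Its exons overlap those of Nr2c2 on the other strand. Mrps27 (chr13:99344786-99415561, plus strand), an RNA-binding protein of the small subunit, measured 6.63, 8.06 and 7.19 RPKM, against 7.96, 6.78 and 7.77 RPKM.

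Mrpl35 (chr6:71812997-71823784, minus strand) measured 5.98, 7.78 and 6.60 RPKM with ccl5, against 7.83, 9.13 and 8.22 RPKM in controls, the groups just apart. Mrpl1 (chr5:96210115-96266709, plus strand), the protein of the stalk where spent tRNAs leave, measured 10.2, 6.82 and 11.5 RPKM, against 9.22, 9.06 and 7.04 RPKM. Its low libraries were ccl5 replicate 2 and control replicate 3, and its fold change turned below 1 with plain library totals. The ranges of Mrps27, Mrpl35 and Mrpl1 over libraries overlapped, so their order is not resolved by these libraries. Exon lengths in the table are of all exons joined, so a gene with a long end that is seldom used gets a low RPKM.

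**Figure D4:**
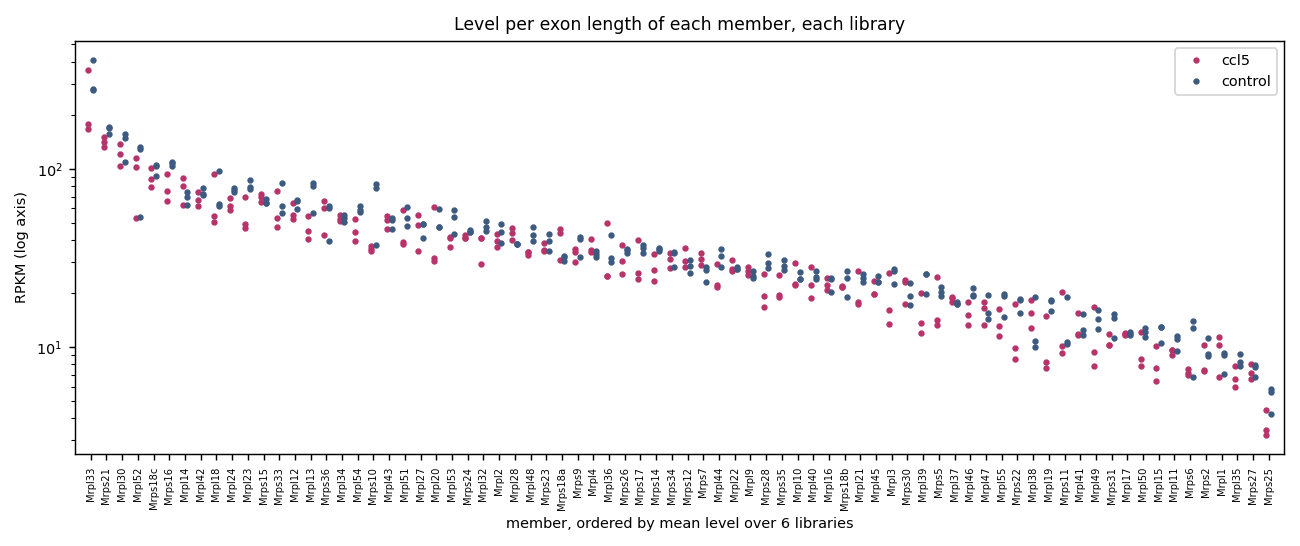
RPKM of each of the 76 genes in each library on a log axis, ordered by the mean over 6 libraries, with ccl5 points left of control points. Levels fall from 279 for Mrpl33 to 4.44 for Mrps25, and most genes differ less between groups than from each other.

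The mouse genome has 3 copies related to bacterial S18, and they measured differently. Mrps18a (chr17:46111004-46128908, plus strand), which despite its name sits in the large subunit, measured 37.7, 26.6 and 39.9 CPM with ccl5, against 26.4, 28.2 and 27.7 CPM in controls. It had the highest fold change of the 76 genes (log2 0.34, SE 0.20), which lay in ccl5 replicates 1 and 3, since ccl5 replicate 2 was level with the controls. Without ccl5 replicate 2 it passed the edgeR test (log2 0.50, adjusted p = 0.032), as did 26.2% of all genes. Mrps18b (chr17:35910385-35916369, minus strand) measured 22.9, 23.02 and 23.1 CPM with ccl5, against 25.8, 28.3 and 20.02 CPM in controls, and Mrps18c (chr5:100798759-100804467, plus strand) measured 39.9, 51.0 and 44.1 CPM, against 46.1, 52.2 and 52.6 CPM. Both small-subunit copies overlapped between groups, with log2 fold changes of -0.10 (SE 0.18) and -0.16 (SE 0.16). Their levels per length also differed, at 94.9 RPKM for Mrps18c, 35.97 for Mrps18a and 22.7 for Mrps18b on average over the 6 libraries.

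Mrps30 (chr13:118380110-118387252, minus strand), another large-subunit protein with a small-subunit name, measured 37.9, 27.6 and 36.7 CPM with ccl5, against 36.2, 30.6 and 27.6 CPM in controls. ccl5 replicate 2 and control replicate 3 were its low libraries. Mrps36 (chr13:100735940-100744659, minus strand), which is not a ribosomal subunit, measured 43.3, 30.5 and 47.4 CPM, against 43.2, 44.5 and 28.3 CPM, with the same low libraries. The fold changes of Mrps30 and Mrps36 were above 1 with TMM (log2 0.11 and 0.064) and below 1 with plain library totals. Mrpl12 (chr11:120484669-120488754, plus strand), the stalk protein that recruits translation factors, measured 52.1, 61.2 and 49.5 CPM with ccl5, against 62.8, 63.5 and 56.4 CPM in controls. Its ccl5 replicate 2 exceeded control replicate 3, and the log2 fold change was -0.17 (SE 0.15).

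Large-subunit genes had a median log2 fold change of -0.18, with 37 of 49 below 1, and small-subunit genes one of -0.21, with 23 of 26 below 1. The 47 genes of bacterial families had a median of -0.17, with 36 below 1, and the 28 mitochondria-specific genes one of -0.24, with 24 below 1. Without overlap between groups, 11 large-subunit genes (22.4%) and 7 small-subunit genes (26.9%) were lower, against 7.49% of all tested genes. Higher without overlap were 2 large-subunit genes and 1 small-subunit gene, where 8.27% of all tested genes were. The medians of the subunits differed by less than the SD of such a median between libraries of a group, which was 0.0956 for the large and 0.122 for the small subunit. The medians of both subunits rose and fell together over the libraries. This SD therefore does not measure the spread of their difference, which was not tested.

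Of the 76 genes, 26 (34.2%) start within 1000 bases of a gene that runs in the opposite direction, against 14.5% of all tested genes. They have 24 partners outside the 76, of which 23 were tested, 14 with a fold change below 1 and 9 with one above 1. Psma2 beside Mrpl32, Ndufb5 beside Mrpl47 and Fau beside Mrpl49 were lower with ccl5 without overlap (13% of the partners tested, against 7.49% of all tested genes), and 0 were higher without overlap. Mrpl46 (chr7:78775341-78783089, minus strand), a protein of the central protuberance, and Mrps11 start 42 bases apart and run away from each other, and are the only such pair within the 76. Mrpl46 measured 15.5, 18.4 and 13.7 CPM with ccl5, against 20.04, 22.1 and 20.2 CPM in controls, all ccl5 libraries below all controls (-0.39 in log2 fold change with an SE of 0.19, and an edgeR adjusted p of 0.399). Mrps11 instead was high in ccl5 replicate 2 and control replicate 3, so the neighbours differed in pattern. Mrpl46 and Mrps11 were chosen after their values were seen.

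The RefSeq windows of this pair overlap on the genome and are printed, each along its own gene with the same capitals as above, to show the shared stretch between the starts.
Mrpl46, chr7:78783040-78783339, minus strand: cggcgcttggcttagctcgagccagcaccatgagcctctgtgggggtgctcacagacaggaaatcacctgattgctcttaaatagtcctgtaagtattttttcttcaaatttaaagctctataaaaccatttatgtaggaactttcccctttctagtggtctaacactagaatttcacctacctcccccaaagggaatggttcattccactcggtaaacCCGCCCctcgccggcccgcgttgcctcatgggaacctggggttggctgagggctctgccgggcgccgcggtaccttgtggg
Mrps11, chr7:78782881-78783180, plus strand: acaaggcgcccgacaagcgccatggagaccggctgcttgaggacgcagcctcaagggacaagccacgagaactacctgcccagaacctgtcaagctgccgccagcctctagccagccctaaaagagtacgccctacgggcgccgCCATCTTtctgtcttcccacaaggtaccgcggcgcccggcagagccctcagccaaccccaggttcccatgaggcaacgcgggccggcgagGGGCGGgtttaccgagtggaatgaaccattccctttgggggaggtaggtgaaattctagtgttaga
The stretch they share holds a single GGGCGG, which reads as CCGCCC in the Mrpl46 window, and the Mrps11 window alone holds the YY1 letters, as CCATCTT. Exons of 9 of the 76 genes overlap those of another gene, on the same strand for Mrps6 and for Mrpl53, which overlaps Ccdc142.

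Of the genes for mitochondrial ribosomal proteins whose symbols fall outside the naming rule, 7 were tested. All 7 had a lower fold change, with a median log2 of -0.24, and 3 were lower without overlap (42.9%, against 7.49% of all tested genes). Ict1, which releases peptides from stalled mitochondrial ribosomes, measured 33.3, 35.4 and 32.6 CPM with ccl5, against 45.1, 45.5 and 39.3 CPM in controls, and Mrp63, of the large subunit, measured 41.4, 54.8 and 40.2 CPM, against 69.6, 64.1 and 58.0 CPM. The groups of both were apart. Ptcd3, an RNA-binding protein of the small subunit, measured 20.4, 47.2 and 22.1 CPM, against 44.1, 47.7 and 46.3 CPM, with ccl5 replicate 2 level with the controls.

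Among 31 genes for mitochondrial ribosome assembly and rRNA modification, 18 were lower and 13 higher, with a median log2 fold change of -0.075. Trub2, a pseudouridine synthase, averaged 23.9 ± 3.32 CPM (SD, n = 3) in ccl5 libraries and 33.5 ± 4.47 CPM (SD, n = 3) in control libraries, without overlap. Mpv17l2, an assembly factor, measured 31.5, 17.96 and 32.2 CPM with ccl5, against 13.4, 13.0 and 19.3 CPM in controls, so its higher values lay in ccl5 replicates 1 and 3. Of 19 mitochondrial translation factors 13 were lower (median log2 -0.13). Mrrf, the ribosome recycling factor, measured 15.4, 16.1 and 15.5 CPM with ccl5, against 22.4, 21.6 and 19.6 CPM in controls, with the groups apart. Of 22 genes listed as mitochondrial aminoacyl-tRNA synthetases 16 were lower (median log2 -0.22), 0 of them without overlap. The list also holds Gatc, Qrsl1 and Pet112l, which encode subunits of an amidotransferase and not synthetases, and Kars and Gars, which serve the cytosol too. Iars2, which charges tRNA with isoleucine, was 1 of 2 that were higher without overlap, at 71.8 ± 8.36 CPM against 56.3 ± 2.81 CPM (SD, n = 3 each). The other was Gatc, at 27.9 ± 0.610 CPM against 23.6 ± 2.62 CPM.

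For mitochondrial DNA maintenance and transcription, 11 of 18 genes were lower (median log2 -0.18), among them Ssbp1, the single-stranded DNA binding protein, at 31.3 ± 2.48 CPM (SD, n = 3) in ccl5 libraries and 46.8 ± 9.72 CPM (SD, n = 3) in control libraries. Of 20 genes for mitochondrial RNA processing and decay 14 were lower (median log2 -0.099), and of 11 tested regulators of mitochondrial biogenesis 3 were lower (median log2 0.038). Yy1, a transcription factor of that last list, measured 110, 76.95 and 106 CPM with ccl5, against 76.98, 70 and 71.9 CPM in controls. ccl5 replicate 2 was level with the highest control. None of these genes passed edgeR's test, at adjusted p of 0.365 or above.

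Genes for the cytosolic ribosome had lower fold changes than those for the mitochondrial ribosome. Of 77 tested genes for cytosolic ribosomal proteins 75 had a lower fold change, with a median log2 of -0.51 and 70 genes lower without overlap (90.9%), against 23.7% of the 76 mitochondrial ones. Rpl32 measured 872, 1332 and 1017 CPM with ccl5, against 1938, 1959 and 1502 CPM in controls. Nuclear-encoded subunits of oxidative phosphorylation, most of which have partners that the mitochondrial ribosome makes, were lower in 57 of 73 (median log2 -0.12). Of these genes 11 were lower without overlap (15.1%, against 7.49% of all tested genes). Ndufa9, of complex I, measured 66.3, 74.0 and 60.5 CPM with ccl5, against 113, 116 and 80.7 CPM in controls. Of 19 genes that mark mitochondrial mass 16 were lower (median log2 -0.21), among them Vdac3, an outer membrane channel, at 91.2 ± 19.0 CPM (SD, n = 3) in ccl5 libraries and 127 ± 11.4 CPM (SD, n = 3) in control libraries. The differences between these lists were not tested. Genes encoded in mitochondrial DNA were not analysed, because 0 of the 15 searched by symbol were in the deposited table.

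Per library, the median deviation of the 76 genes from each gene's mean was -0.22, 0.043 and -0.15 on the log2 scale in ccl5 replicates 1 to 3, against 0.10, 0.14 and 0.040 in control replicates 1 to 3. The value of ccl5 replicate 2 lay within the control range, and those of ccl5 replicates 1 and 3 lay below it. For the cytosolic ribosomal proteins the same values were -0.41, -0.054 and -0.24, against 0.33, 0.34 and 0.059, so there every ccl5 library lay below every control library. For oxidative phosphorylation they were -0.11, -0.064 and 0.0071, against 0.11, 0.12 and -0.030, and control replicate 3 fell inside the ccl5 range.

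**Figure D5:**
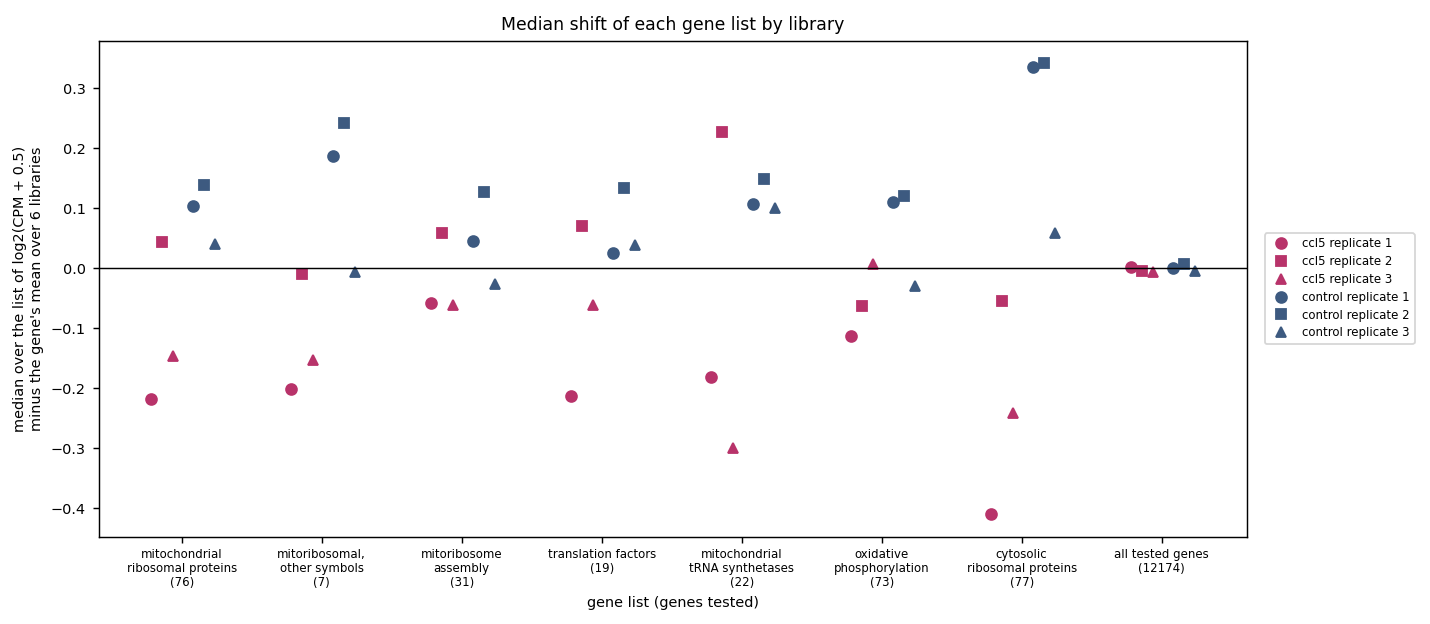
Median over each gene list of log2(CPM + 0.5) minus the gene's mean over the 6 libraries, for each library, ccl5 in red left of control in blue, with the number of genes tested below each name. For the 76 mitochondrial ribosomal protein genes ccl5 replicate 2 lies among the controls, while the median of all tested genes lies close to 0 in every library.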

How the data were processed

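Per the labels' protocols, polyadenylated RNA was read from one end, 100 bases at a time. The authors deposited raw counts per gene for 6 libraries, made with featureCounts 1.5.1 on an mm10 gene annotation and primary alignments without a strand option, per the file headers. The submitters' processing notes list TopHat, Bowtie, Trimmomatic and DESeq2, with no versions. The deposited table also gives exon lengths, in bases, used here for RPKM.

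Counts were scaled by TMM and filtered with filterByExpr (minimum count 10), which left 12174 of 18580 genes with at least 1 count. The main test was edgeR's (4.0.16, under R 4.3.3) two-sided quasi-likelihood F test, Benjamini-Hochberg adjusted over all tested genes, at 0.05. The model held no replicate block. The SE is the absolute log2 fold change over the square root of F. Groups count as apart when the 3 ccl5 CPM values lie all above or all below the 3 control values. Alternatives were DESeq2 size factors, plain library totals, no filter, CPM over 1 in at least 3 libraries, DESeq2 1.42.0, limma-voom (limma 3.58.1), a threshold of 0.1, leaving out libraries, and, added after seeing the data, ccl5 replicate 2 against control replicate 3 alone. The test was also tried on simulated data, whose outcome is not given here and is no support for any result.

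The 76 genes, the gene lists and the naming rule were chosen with earlier results of these data known, so no list carries a p-value of its own. The rule named the 8 genes with the smallest p, the 3 largest fold changes per direction, the 4 highest and lowest by RPKM, the 3 closest to 0, the Mrps18 copies, Mrpl12, Mrps30 and Mrps36, and up to 3 genes of each other list. Genes described for following ccl5 replicate 2 and control replicate 3, those higher without overlap, Mrps6 and the neighbour pairs were chosen after their values were seen. Older symbols of a few list genes were corrected from RefSeq synonyms after a first run. Promoter windows are from RefSeq, and protein sequences were not used here.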

Additional observations from a re-analysis of the deposited data

How the results depend on the processing

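In each group 1 library stood apart from the other 2, ccl5 replicate 2 and control replicate 3. The lowest count of any of the 76 genes was 61. The call of 0 of the 76 genes held with DESeq2 size factors, plain library totals, no filter and CPM over 1 in at least 3 libraries. It also held with the DESeq2 Wald test and a threshold of 0.1. With ccl5 replicate 1, ccl5 replicate 3, control replicate 1 or control replicate 2 left out, 0 of the 76 were called too. In those fits 232 to 316 of all genes had an unadjusted p under 0.05 in edgeR and 0% were called. The 0 calls of the 76 in those fits therefore say little about stability. The call of 0 did not hold with limma-voom, without ccl5 replicate 2, without control replicate 3 or without both. With primary transplant libraries only and without ccl5 replicates 1 and 3, 1 group is a single library and only 0 and 24 of all genes had an unadjusted p under 0.05 in edgeR, so 0 calls there say nothing about stability. No paired analysis was possible because the titles of the ccl5 libraries carry letters and no replicate numbers, and the numbers used here for them only name the libraries. The cause of the changes below was not tested.

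DESeq2's Wald test called 192 genes (1.49%), and limma-voom with quality weights 8097 genes (66.5%) and 52 of the 76. Without ccl5 replicate 2 and control replicate 3 together, edgeR called 8797 genes (70.7%) and 53 of the 76, with 54 of the 76 lower and 12 higher without overlap, against 43.3% and 42% of all genes. Leaving out 1 library at a time, it called 0 to 3299 genes (0% to 26.2%) and 0 to 20 of the 76. In those fits 55 to 58 of the 76 were lower and 18 to 21 higher, while 46.6% to 53.1% of all genes were lower. Without overlap, 18 to 44 were lower and 3 to 9 higher, against 8.01% to 31.4% and 8.73% to 31.8% of all genes. With plain library totals 4 of the 76 were higher, 11 were lower without overlap and 0 higher without overlap, against 9.13% and 5.44% of all genes. With primary transplant libraries only, the lone control library is assumed to vary like the ccl5 libraries. In that fit 65.8% of the 76 were lower, against 51% of all genes. Higher were 26 of the 76, 10 of them without overlap, against 24.1% of all genes higher without overlap. Without ccl5 replicates 1 and 3, 31 were higher, 29 lower without overlap and 16 higher without overlap, against 26.7% and 26.6% of all genes without overlap. In ccl5 replicate 2 against control replicate 3 alone, an alternative chosen after seeing the data, 39 were lower, 37 higher and the median log2 ratio was -0.021.

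Median log2 fold changes with plain library totals were -0.34 for the 76 genes, -0.34 for the large subunit, -0.35 for the small subunit, -0.31 for bacterial families, -0.41 for mitochondria-specific genes, -0.39 for other symbols, -0.23 for assembly, -0.27 for translation factors, -0.32 for DNA maintenance, -0.29 for RNA processing, -0.12 for regulators and -0.29 for oxidative phosphorylation. With limma-voom they were -0.29 for the large subunit, -0.27 for bacterial families, -0.40 for other symbols, -0.44 for tRNA synthetases, 0.12 for regulators and -0.69 for cytosolic ribosomal proteins. With primary transplant libraries only they were -0.040 for bacterial families, -0.077 for other symbols, -0.069 for DNA maintenance, 0.090 for RNA processing, -0.23 for cytosolic ribosomal proteins, -0.033 for oxidative phosphorylation and 0.028 for mitochondrial mass. Without ccl5 replicates 1 and 3 they were -0.043 for the 76 genes, -0.046 for the large subunit, -0.017 for the small subunit, -0.046 for bacterial families, -0.028 for mitochondria-specific genes, 0.012 for translation factors, 0.059 for tRNA synthetases, -0.088 for DNA maintenance, 0.14 for regulators and -0.31 for cytosolic ribosomal proteins. Without ccl5 replicate 2 and control replicate 3 they were -0.37 for other symbols, -0.43 for tRNA synthetases and 0.14 for regulators. A median is listed in this paragraph where it moved from its main value by at least its SD between libraries of a group. Medians of the lists that are left out for a setting moved by less.

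With 1 library left out, medians ranged from -0.28 to -0.13 for the 76 genes, -0.26 to -0.13 for the large and -0.35 to -0.12 for the small subunit, -0.26 to -0.11 for bacterial families, -0.33 to -0.14 for mitochondria-specific genes, -0.31 to -0.21 for other symbols, -0.13 to 0.0049 for assembly, -0.26 to -0.042 for translation factors, -0.44 to -0.065 for tRNA synthetases, -0.24 to -0.092 for DNA maintenance, -0.18 to -0.035 for RNA processing, 0.073 to 0.13 for regulators, -0.58 to -0.40 for cytosolic ribosomal proteins, -0.16 to -0.098 for oxidative phosphorylation and -0.28 to -0.12 for mitochondrial mass.

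Some log2 fold changes of single genes changed sign. With plain library totals Mrpl1 was at -0.041, Mrpl34 at -0.17, Mrps36 at -0.13 and Mrps30 at -0.083. Mrpl10 and Mrpl41 were at 0.0046 and 0.0024 with no filter and at 0.0081 and 0.0054 in DESeq2, and Mrpl34 was at -0.00010 with CPM over 1. With primary transplant libraries only Mrpl38 was at -0.31, Mrpl30 at 0.13, Mrpl52 at 0.61 and Mrps18b at 0.19. Without ccl5 replicates 1 and 3 Mrps18a was at -0.050, Mrpl33 at 0.15, Mrps27 at 0.10, Mrpl1 at -0.31, Mrpl34 at -0.046, Mrpl10 at 0.24, Mrpl41 at 0.24, Mrps18c at 0.017, Mrpl12 at 0.0041, Mrps36 at -0.35 and Mrps30 at -0.19. With 1 library left out, Mrpl52 ranged from -0.53 to 0.049, Mrps27 from -0.12 to 0.032, Mrpl34 from -0.018 to 0.032, Mrpl10 from -0.14 to 0.073, Mrpl41 from -0.15 to 0.13, Mrps18b from -0.22 to 0.0052 and Mrps36 from -0.11 to 0.24.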

Other observations

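Among regulators of mitochondrial biogenesis, genes described here after their values were seen, Myc, a transcription factor that drives ribosome production, measured 9.76, 67.0 and 5.10 CPM in ccl5 replicates 1 to 3, against 64.4, 64.8 and 53.3 CPM in control replicates 1 to 3. Its level in ccl5 replicate 2 was the highest of all 6 libraries, and the group difference was not past the edgeR threshold (adjusted p = 0.588). Nrf1, a regulator of nuclear genes for mitochondrial proteins, measured 33.5, 41.0 and 34.8 CPM with ccl5, against 23.5, 23.7 and 41.2 CPM in controls. Gabpa, an ETS factor, measured 55.7, 86.2 and 60.9 CPM with ccl5, against 64.7, 65.7 and 80.7 CPM in controls. Nrf1 and Gabpa were highest in ccl5 replicate 2 and control replicate 3. Max, the partner of Myc, measured 52.2, 49.0 and 52.1 CPM with ccl5, against 42.4, 41.3 and 45.4 CPM in controls, with the groups apart and an adjusted p of 0.42 in edgeR. Tk2, a mitochondrial thymidine kinase, measured 76.8, 33.8 and 80.5 CPM with ccl5, against 39.0, 37.0 and 38.8 CPM in controls, so its high values lay in ccl5 replicates 1 and 3.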
